A study of Mus musculus with 12 samples.

Results

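The 6 genes described here, Hey1, Hey2, Heyl, Hes1, Nrarp and Rbpj, encode the transcriptional end of the Notch pathway. They were taken by gene symbol and are 6 of the 41214 genes in the deposited count table. All 6 passed the filter on low counts and were among the 15171 genes tested. The table holds bulk RNA-seq of mouse embryonic ventricular endothelium, with 12 libraries in 4 groups. Cells enriched for the endocardium, the inner lining of the heart chambers, and for the coronary vessels were sorted at the same time. Each population has 4 libraries at the stage labelled E13 and 2 at the stage labelled E17.

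All sorted cells were alive, negative for Ter119 and CD45 and positive for CD31, and all embryos carried Nes-gfp (Tg/0), in which nestin sequence drives GFP. The E13 endocardial group was gated as GFP-low and Emcn-high, and the E13 coronary group as GFP-positive, both from embryos of E13.5. The E17 groups came from E17.5 embryos that also carried Nes-CreER (Tg/0) and R26 (tom/+), a tomato reporter switched on where the nestin-driven Cre is active. These embryos were exposed to 0.1 ug of tamoxifen given at E15.5. The E17 endocardial gate is stated only as GFP-positive. An arterial and capillary gate and a venous gate are described for E17 coronary cells, both Emcn-low, and which gate the E17 coronary libraries came from is not given. Stage therefore cannot be told apart from the added alleles, tamoxifen and the change of gate. Replicates carry batch numbers, and nothing says whether they came from separate litters. The p-values therefore reflect only how far these libraries varied, which may be technical.

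When a Notch receptor is cleaved after binding a ligand on a neighbouring cell, its inner domain enters the nucleus and joins RBPJ, the DNA-binding protein of the pathway. RBPJ without Notch holds target genes down, and with Notch and a Mastermind co-activator it switches them on. HES1, HEY1, HEY2 and HEYL are repressors of the basic helix-loop-helix class whose genes are direct targets in many tissues. NRARP is a small ankyrin-repeat protein, made in response to Notch, that binds the Notch and RBPJ complex and limits its output. In the heart, Hey1 and Hey2 are known for their part in arterial fate and in valve and septum formation, and Hey2 is also a gene of compact ventricular muscle. Heyl is best known from smooth muscle and pericytes.

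The members lie on different chromosomes in build GRCm38, in a GENCODE annotation of that build. Hey1 is at chr3:8663359-8667256 on the minus strand, Hey2 at chr10:30832359-30842801 on the minus strand and Heyl at chr4:123233556-123249875 on the plus strand. Hes1 is at chr16:30064384-30067796, Nrarp at chr2:25180758-25183339 and Rbpj at chr5:53466152-53657362, all on the plus strand. RNA from genes on the opposite strand cannot be separated in these libraries, which do not mark strand. The annotation has 1 antisense gene within the Nrarp locus and 2 within that of Rbpj, and none overlapping the other members.

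RefSeq promoter windows (GRCm38.p6) were matched for Hey2, Nrarp and Rbpj. The 250 bases before the start are shown for Hey2 and Nrarp, because these members moved in opposite directions between the stages in coronary cells. Both are written 5′ to 3′ on the gene's strand. Capitals mark matches, on either strand, to the RBPJ core GTGGGAA or GTGAGAA, to the E-box CACGTG or to the N-box CACNAG. HES and HEY proteins are known to bind the last pair.
Hey2, chr10:30842784-30843033, minus strand: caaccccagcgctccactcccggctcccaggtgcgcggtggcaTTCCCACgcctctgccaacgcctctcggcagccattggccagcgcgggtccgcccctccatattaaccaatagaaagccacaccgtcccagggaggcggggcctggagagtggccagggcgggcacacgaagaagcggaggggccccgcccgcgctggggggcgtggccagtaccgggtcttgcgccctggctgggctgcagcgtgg
Nrarp, chr2:25180508-25180757, plus strand: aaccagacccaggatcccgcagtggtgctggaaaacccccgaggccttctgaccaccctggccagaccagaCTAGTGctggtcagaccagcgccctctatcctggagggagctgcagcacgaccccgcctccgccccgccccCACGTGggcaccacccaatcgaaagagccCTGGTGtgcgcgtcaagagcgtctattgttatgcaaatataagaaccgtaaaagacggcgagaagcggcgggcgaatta
The Hey2 window holds 1 match to the RBPJ core, as GTGGGAA on the opposite strand, 201 to 207 bases before the RefSeq start, and no match to the other motifs. That start lies inside Hey2 as placed above, so the last bases of the window, from 30842801 down to 30842784, fall within the gene. The Nrarp window holds an E-box 103 to 108 bases before the start and 2 N-boxes on the opposite strand, and neither RBPJ core. Of 32851 RefSeq windows of the same 250 bases, 5.42% hold GTGGGAA, 9.01% hold one or the other RBPJ core, 6.02% the E-box and 36.7% the N-box. These motifs do not overlap one another in either window, and a match describes the letters only.

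Library totals ran from 14973633 to 27360653 expected counts. The summed level of 6 endothelial genes (Pecam1, Cdh5, Kdr, Tek, Tie1, Erg) was read in CPM, the library-scaled count unit used for all levels here. It lay between 7151.6 and 8020.1 CPM in E13 endocardial and between 4788 and 6576.2 CPM in E13 coronary libraries. At E17 it lay between 6748.1 and 6899.5 CPM in endocardial and between 9380.5 and 10520.1 CPM in coronary libraries. The endocardial gene sum was between 1173 and 1563 CPM among E13 coronary libraries and 196.1 and 197.2 CPM among the E17 ones, against at least 4705 CPM in every endocardial library. The E13 coronary libraries differed among themselves: all 8 fibroblast genes were lowest in replicate 1 and highest in replicate 3, with sums of 2630.3 and 6979 CPM. Results that involve E13 coronary cells were therefore also computed without those 2 libraries. The E17 coronary libraries differed as well, with fibroblast sums of 4792.5 CPM in replicate 1 and 2172.5 CPM in replicate 2. In bulk RNA, fewer cells of a type and less RNA per cell cannot be told apart.

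**Figure D1:**
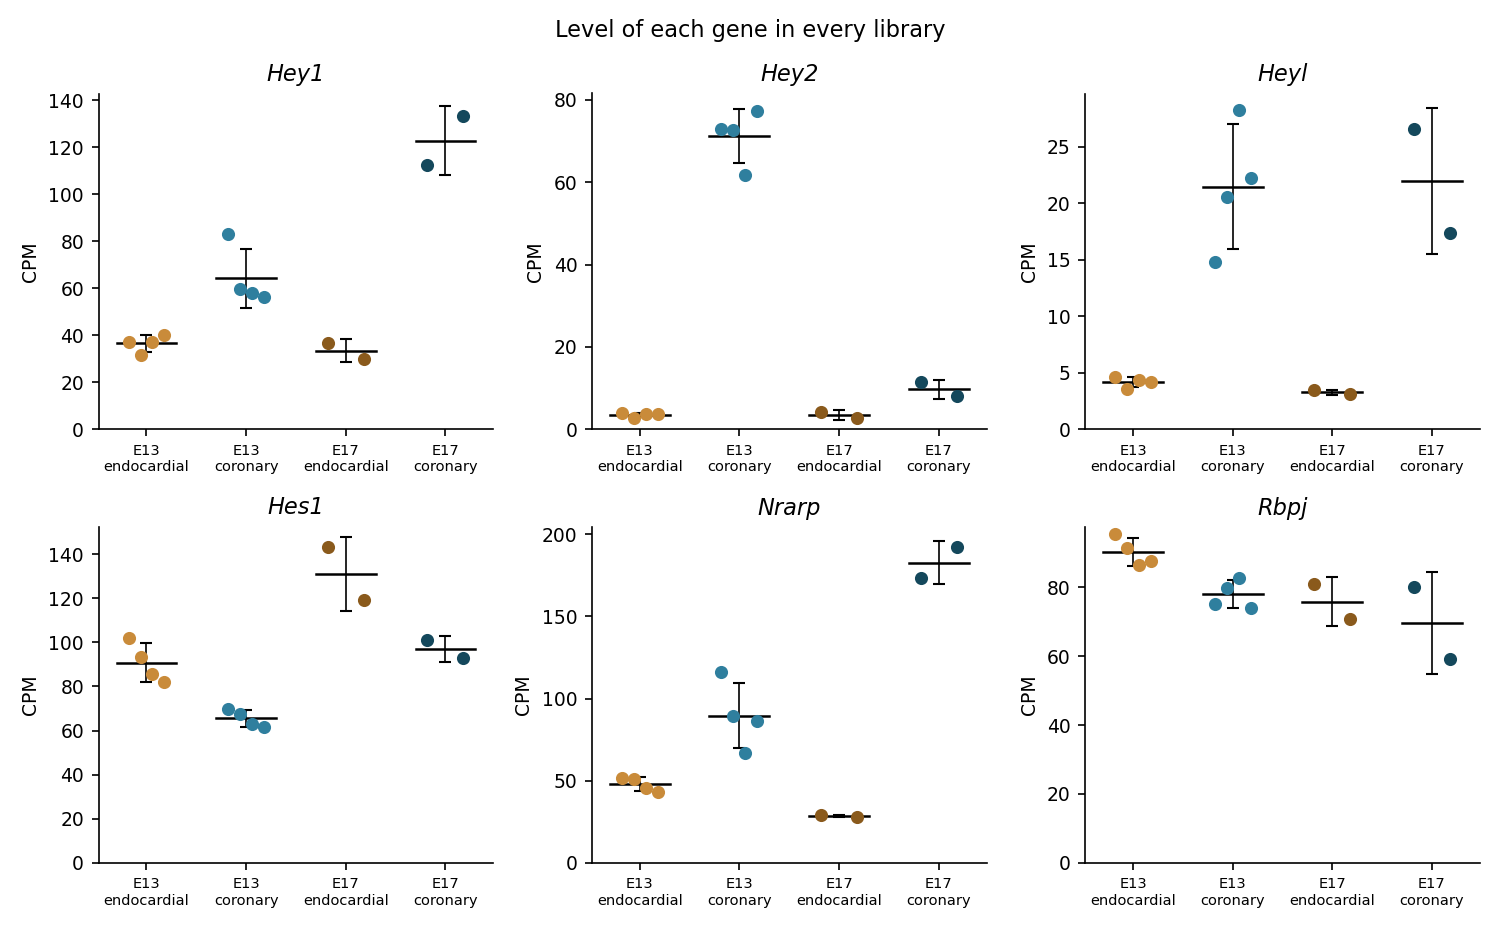
Level of each member in CPM (vertical axes, from 0) in all 12 libraries, by group on the horizontal axis. Points are libraries, lines are group means and bars are SD (n = 4 at E13, n = 2 at E17). Hey2 is high in the 4 E13 coronary libraries, from 61.9 to 77.3 CPM, and at or below 11.4 CPM in the other 8, whereas Hey1 and Nrarp are highest in the E17 coronary libraries.

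Levels of different genes were compared per kilobase of annotated exon. In E13 endocardial libraries Hes1 was the highest at 44.6 ± 4.39 CPM per kilobase (SD, n = 4), followed by Nrarp at 18.5 ± 1.64 and Hey1 at 11.2 ± 1.11. Rbpj stood at 7.08 ± 0.324 CPM per kilobase, and Heyl (0.816 ± 0.0886) and Hey2 (0.751 ± 0.112) were the lowest. Their group values were within their spread, though Hey2 was slightly below Heyl in each library (log2 ratio from -0.25 to -0.04). In E13 coronary libraries Nrarp (34.7 ± 7.77 CPM per kilobase) and Hes1 (32.2 ± 1.88) were level within their spread, ahead of Hey1 (19.7 ± 3.89), Hey2 (15.51 ± 1.43), Rbpj (6.12 ± 0.317) and Heyl (4.20 ± 1.08).

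In E17 endocardial libraries Hes1 again led, at 64.4 ± 8.35 CPM per kilobase (SD, n = 2). Nrarp and Hey1 were close together at 11.1 ± 0.312 and 10.2 ± 1.48, Rbpj followed at 5.95 ± 0.563, and Hey2 (0.759 ± 0.255) and Heyl (0.641 ± 0.0452) were again the lowest. In E17 coronary libraries Nrarp led at 70.8 ± 5.13 CPM per kilobase, then Hes1 at 47.6 ± 2.88 and Hey1 at 37.6 ± 4.50. Rbpj (5.47 ± 1.16), Heyl (4.29 ± 1.27) and Hey2 (2.12 ± 0.508) were far lower. The order depends on the length used. Per kilobase of the longest coding transcript, E13 coronary Hes1 (44.7 ± 2.61) stood above Nrarp (34.7 ± 7.77), and Hey2 (27.9 ± 2.58) was level with Hey1 (26.5 ± 5.24). On that scale E17 coronary Hes1 (66.0 ± 3.99) and Nrarp (70.8 ± 5.13) were level within their spread. In E17 endocardial libraries Rbpj (13.8 ± 1.31) and Hey1 (13.8 ± 1.99) then stood above Nrarp (11.1 ± 0.312). In E13 endocardial libraries Hey2 (1.35 ± 0.202) then stood above Heyl (0.92 ± 0.0998), and Rbpj (16.45 ± 0.753) was level with Hey1 (15.09 ± 1.5) within their spread.

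The 4 repressor genes were also expressed as shares of their summed level per kilobase of exon. Hes1 made up 77.7 ± 2.90% in E13 endocardial and 84.7 ± 0.301% in E17 endocardial libraries, with Hey1 nearly all of the rest. In E13 coronary libraries Hes1 held 45.0 ± 1.33%, Hey1 27.3 ± 3.42%, Hey2 21.7 ± 2.12% and Heyl 5.95 ± 1.85%. At E17 the coronary share of Hey2 was 2.31 ± 0.550% and that of Hey1 41.1 ± 4.98%, while Hes1 held 51.9 ± 3.05% and Heyl 4.69 ± 1.38%. In coronary cells the share of Hey2 was thus lower and that of Hey1 higher at E17 than at E13. Per kilobase of the longest coding transcript the E13 coronary share of Hey2 was 26.9 ± 2.45% and the E17 share 3.05 ± 0.723%.

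**Figure D2:**
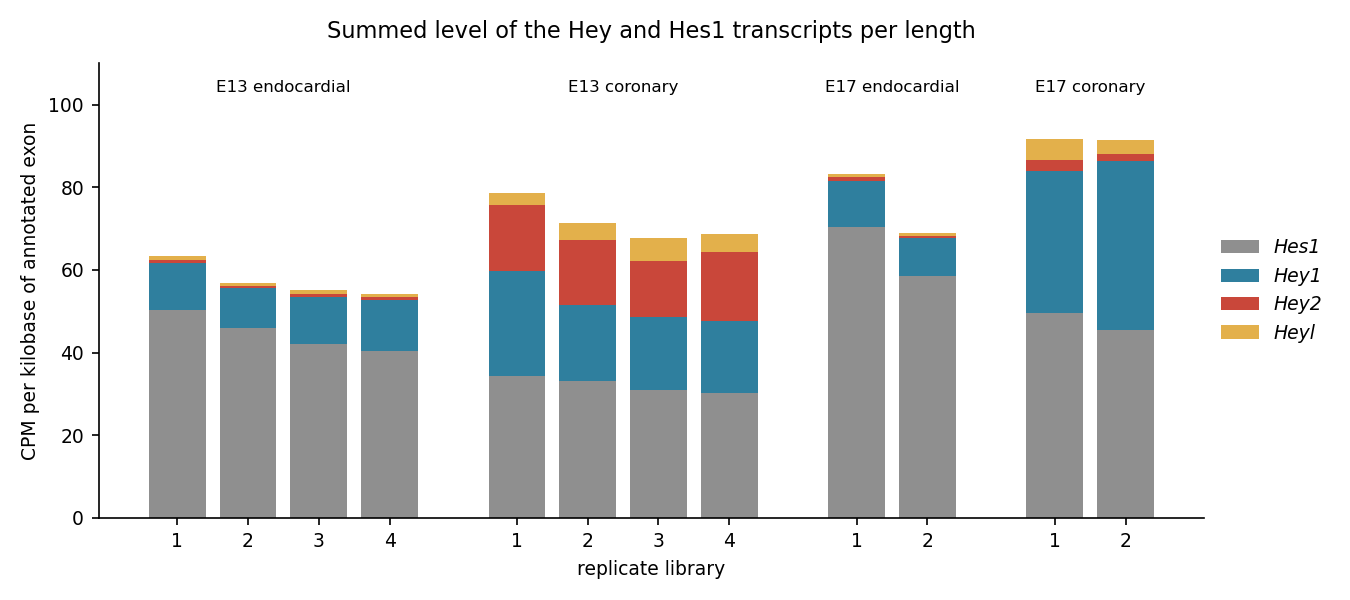
Stacked level of Hes1, Hey1, Hey2 and Heyl in CPM per kilobase of annotated exon (vertical axis, from 0) in each replicate library (horizontal axis), by group. Hey2 forms a visible part of the bar in the E13 coronary libraries, from 13.47 to 16.8 CPM per kilobase, and at most 2.48 in the others.

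The first comparison asks how the endothelium of the forming coronary plexus differs from the endocardium at E13. All 3 Hey genes and Nrarp were higher in coronary libraries, Hey2 by far the most, and Hes1 and Rbpj were lower. All 6 members passed the edgeR test, where 60.0% of all tested genes did. Of the members 4 were higher, against 30.1% of all genes, and 2 lower, against 29.9%. For all 6 the libraries of the groups did not overlap in CPM, which held for 55.5% of all tested genes, so these counts are not far from what most genes showed. The median log2 fold change of the members was 0.86, against -0.02 over all tested genes.

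Hey2, a repressor known for its part in arterial fate and in ventricular muscle, read 3.83, 2.69, 3.65 and 3.63 CPM in endocardial replicates 1 to 4 and 73.0, 72.7, 61.9 and 77.3 CPM in coronary replicates 1 to 4. The lowest coronary library was thus far above the highest endocardial one. The log2 fold change was 4.36 ± 0.15 (SE; edgeR adjusted p = 1.45e-09), or 20.6-fold, and the ratio within the 4 batches ran from 4.08 to 4.76 on the log2 scale.

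Heyl, the member best known from mural cells, read 4.62, 3.56, 4.35 and 4.16 CPM in endocardial and 14.8, 20.5, 28.3 and 22.2 CPM in coronary replicates 1 to 4. Its coronary libraries differed more among themselves than those of Hey2, with replicate 3 highest and replicate 1 lowest. The log2 fold change was 2.36 ± 0.20 (edgeR adjusted p = 7.83e-07), or 5.13-fold.

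Hey1, a repressor of the same family, read 37.1, 31.6, 37.3 and 40.3 CPM in endocardial and 83.2, 59.6, 58.0 and 56.3 CPM in coronary replicates 1 to 4. Coronary replicate 1 stood apart above the other 3, which lay close together and still above all endocardial libraries. The log2 fold change was 0.81 ± 0.13 (edgeR adjusted p = 0.000146), or 1.76-fold, and 0.69 without coronary replicate 1.

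Nrarp, the feedback inhibitor, read 51.8, 51.1, 45.2 and 43.2 CPM in endocardial and 115.9, 89.4, 67.1 and 86.4 CPM in coronary replicates 1 to 4. Coronary replicate 1 was again the highest, as for Hey1, and replicate 3 the lowest. The summed level of 7 coronary capillary genes had the same ends, with 1778 CPM in replicate 1 and 938.9 CPM in replicate 3. These ends are not particular to capillary genes: the sum of the 6 endothelial genes read 6576.2 and 4788 CPM there, and the arterial and venous sums had the same ends. The part of these sums in the spread of Hey1 and Nrarp was not tested. The log2 fold change was 0.90 ± 0.13 (edgeR adjusted p = 7.70e-05), or 1.87-fold.

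Hes1 went the other way from the Hey genes, with 102.2, 93.6, 85.6 and 82.2 CPM in endocardial and 69.9, 67.5, 63.0 and 61.8 CPM in coronary replicates 1 to 4. The groups were close but did not overlap. The log2 fold change was -0.47 ± 0.08 (edgeR adjusted p = 0.000242), and the ratio was between -0.55 and -0.41 in all 4 batches.

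Rbpj, the DNA-binding partner of Notch, had the smallest difference of the members, with 95.5, 91.5, 86.4 and 87.6 CPM in endocardial and 75.2, 79.8, 82.8 and 74.1 CPM in coronary replicates 1 to 4. Its log2 fold change of -0.21 ± 0.08 passed narrowly (edgeR adjusted p = 0.0434). The call was lost with DESeq2-style size factors (0.0649), in DESeq2 (0.0679) and without 1 library: 0.110, 0.0817, 0.0519 and 0.0590 without endocardial replicates 1 to 4, and 0.130, 0.0916 and 0.154 without coronary replicates 1, 2 and 4. Without coronary replicates 1 and 3 together it was 0.0854. The other 5 members passed under every alternative run for this comparison.

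Rbpj is also the only member with expected counts that are not whole (91.7% of its values), and a processed pseudogene, Rbpj-ps3, can take part of its reads. Rbpj-ps3 held from 0 to 13.6% of the counts of both in a library. At E17 its share was 1.69% and 13.6% in endocardial and 0.382% and 10.8% in coronary replicates 1 and 2. With the counts of both added, the E13 log2 fold change of Rbpj stayed at -0.21 (edgeR adjusted p = 0.0113). All other Rbpj values here leave out the Rbpj-ps3 counts. The effect of adding them on the comparisons that involve E17 is not given, though the shares differ most between those libraries.

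The second comparison sets the same populations against each other at E17. The Hey genes and Nrarp were again higher in coronary libraries and Hes1 lower. 5 of 6 members passed the edgeR test, where 52.6% of all tested genes did, and Rbpj did not. Of the members 4 were higher, against 26.5% of all genes, and 1 lower, against 26.1%. The members' median log2 fold change was 1.67 against -0.01 over all genes. With 2 libraries a group, the error rests on the spread shared by all 4 groups.

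Nrarp and Heyl showed the largest differences. Nrarp read 29.1 and 28 CPM in endocardial and 173.5 and 192.2 CPM in coronary replicates 1 and 2, a log2 fold change of 2.68 ± 0.20 (edgeR adjusted p = 3.20e-07), or 6.40-fold. Heyl read 3.44 and 3.11 CPM in endocardial and 26.5 and 17.4 CPM in coronary replicates, a log2 fold change of 2.74 ± 0.29 (edgeR adjusted p = 7.54e-06). For both genes each coronary library was several times above both endocardial ones.

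Hey1 read 36.8 and 30.0 CPM in endocardial and 112.4 and 133.2 CPM in coronary replicates 1 and 2, a log2 fold change of 1.87 ± 0.18 (edgeR adjusted p = 3.72e-06). Hey2 read 4.31 and 2.66 CPM in endocardial and 11.4 and 8.09 CPM in coronary replicates, a log2 fold change of 1.46 ± 0.23 (edgeR adjusted p = 0.000209). The coronary libraries of both genes lay above the endocardial ones, those of Hey2 at a far lower level than at E13.

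Hes1 read 143.1 and 119.1 CPM in endocardial and 101.0 and 92.7 CPM in coronary replicates 1 and 2, a log2 fold change of -0.44 ± 0.11 (edgeR adjusted p = 0.00544). This call was lost without endocardial replicate 1 (-0.30, adjusted p = 0.0771) and without coronary replicate 2 (-0.37, adjusted p = 0.0538). Rbpj read 80.9 and 70.8 CPM in endocardial and 80.2 and 59.3 CPM in coronary replicates, so the groups overlapped in these values, which leave out the Rbpj-ps3 counts. The share of Rbpj-ps3 was 13.6% in endocardial and 10.8% in coronary replicate 2, against 1.69% and 0.382% in replicate 1. The overlap may depend on this, and levels with both counts added are not given. The log2 fold change of Rbpj was -0.12 with a 95% interval from -0.38 to 0.14 (edgeR adjusted p = 0.413). Much rested on coronary replicate 1, which also had the higher fibroblast sum of the pair: without that library the log2 fold change was -0.34. The part of fibroblasts in this was not tested.

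**Figure D3:**
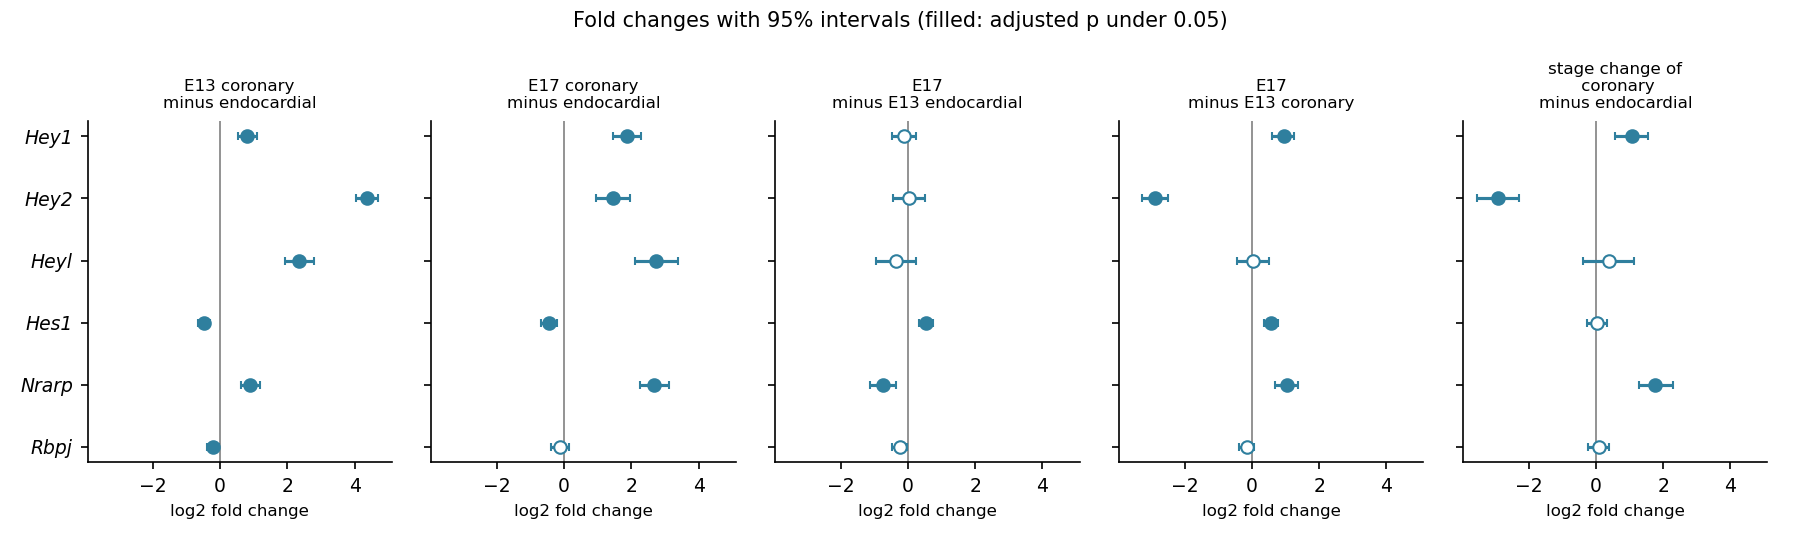
Log2 fold change (horizontal axes) of each member (vertical axis) in the 5 comparisons, with 95% intervals from the edgeR fit and filled points for an adjusted p under 0.05. Hey2 lies at 4.36 at E13 and 1.46 at E17, while Nrarp lies at 0.90 and 2.68, and Rbpj lies between -0.25 and 0.09 throughout.

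In the endocardium the members differed little between the stages. 2 of 6 passed the edgeR test, where 31.8% of all tested genes did, with 1 higher at E17 (16.2% of all genes) and 1 lower (15.6%). Hes1 rose from 90.9 ± 8.93 to 131.1 ± 17.01 CPM, by 0.53 ± 0.09 on the log2 scale (edgeR adjusted p = 0.00118), and every E17 library lay above every E13 library. Nrarp fell by 0.74 ± 0.17, from 47.8 ± 4.24 to 28.6 ± 0.805 CPM (edgeR adjusted p = 0.00590), without overlap. Lack of overlap held for 4 of the 6 members here, among them Heyl and Rbpj, which did not pass. Its share over all tested genes was counted only for the E13 comparison, so it is not read as a result between stages. Without E17 endocardial replicate 2 the adjusted p of Nrarp was 0.0531.

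The 3 Hey genes and Rbpj did not pass in the endocardium. Hey1 lay at -0.13 (95% interval -0.48 to 0.23), Hey2 at 0.03 (-0.46 to 0.51), Heyl at -0.35 (-0.94 to 0.24) and Rbpj at -0.25 (-0.47 to -0.03, edgeR adjusted p = 0.0854). Hey2 and Heyl were low in the endocardium at both stages, at no more than 4.62 CPM in any library. Rbpj passed when only the endocardial libraries were fitted (edgeR adjusted p = 0.0200).

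In coronary cells the members moved apart between the stages. 4 of 6 passed the edgeR test, where 50.1% of all tested genes did, with 3 higher at E17 (24.6% of all genes) and 1 lower (25.6%). The same coronary and endocardial libraries enter the comparisons above, so these values restate the groups from another side. Hey2 fell by 2.88 ± 0.18, from 71.2 ± 6.58 to 9.74 ± 2.33 CPM (edgeR adjusted p = 1.50e-07), or 7.34-fold, and both E17 libraries lay far below all 4 E13 libraries.

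Its close relative Hey1 rose over the same interval, from 64.3 ± 12.7 to 122.8 ± 14.7 CPM (0.94 ± 0.15, edgeR adjusted p = 0.000224). The log2 ratio of Hey1 over Hey2 per kilobase of exon was 0.33 ± 0.28 in E13 coronary and 4.16 ± 0.52 in E17 coronary libraries. In the endocardium it was 3.91 ± 0.12 at E13 and 3.79 ± 0.28 at E17. By this ratio the E13 coronary libraries, from 0.03 to 0.68, stood apart from the other 3 groups, whose libraries ran from 3.59 to 4.53.

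Nrarp rose from 89.7 ± 20.1 to 182.9 ± 13.2 CPM (1.03 ± 0.15, edgeR adjusted p = 0.000128) and Hes1 from 65.6 ± 3.83 to 96.9 ± 5.86 CPM (0.56 ± 0.10, edgeR adjusted p = 0.000385), both without overlap. Of the 6 endothelial genes 5 were also higher here and 1 lower, against 24.6% and 25.6% of all tested genes. Pecam1 (0.95 ± 0.11), Cdh5 (1.02 ± 0.11), Kdr (1.37 ± 0.13), Tie1 (0.24 ± 0.07) and Erg (0.4 ± 0.11) rose, and Tek stood at -0.44 ± 0.06. The relation of these changes to the rises of Hey1 and Nrarp was not tested. Heyl lay at 0.03 (95% interval -0.45 to 0.51), with 21.5 ± 5.54 and 22.0 ± 6.48 CPM. Rbpj lay at -0.16 (-0.39 to 0.06, edgeR adjusted p = 0.213), and without E17 coronary replicate 1 at -0.40 (adjusted p = 0.00673). Leaving out E13 coronary replicates 1 and 3 left Hey2 at -2.94 and 4 members called.

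The last comparison tests whether the coronary excess itself changed between the stages, as the E17 minus the E13 difference. 3 of 6 members passed the edgeR test, where 32.7% of all tested genes did, with 2 higher (16.2% of all genes) and 1 lower (16.5%). The coronary excess of Hey2 fell by 2.91 ± 0.29 (edgeR adjusted p = 1.40e-05), from 20.6-fold to 2.74-fold. That of Nrarp grew by 1.77 ± 0.23 (edgeR adjusted p = 0.000114), from 1.87-fold to 6.40-fold, and that of Hey1 by 1.06 ± 0.22 (edgeR adjusted p = 0.00306), from 1.76-fold to 3.67-fold. All 3 passed under every alternative run. Of the 6 endothelial genes, 4 passed with a positive change of the difference and 1 with a negative one, with a median of 0.56. For Heyl (0.38, 95% interval -0.38 to 1.14), Hes1 (0.04, -0.26 to 0.33) and Rbpj (0.09, -0.23 to 0.40) no change of the difference was detected at this depth of replication.

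Heyl and Hey2 are also expressed outside the endothelium, so markers of other cells are given beside them. At E13 the 12 mural genes, among them Pdgfrb, Rgs5 and Tagln, had sums from 251.0 to 273.9 CPM on the endocardial side and from 390.3 to 777.3 CPM on the coronary side. At E17 the sums were 179.5 and 181.0 CPM against 863.8 and 1127 CPM. 7 of the 12 were higher in coronary libraries at E13 and 10 at E17, and 0 were lower at either stage. Among E13 coronary libraries, 7 of the 10 mural genes that reached 1 CPM had their lowest value in replicate 1 and their highest in replicate 3, as Heyl had, whereas Kcnj8 and Abcc9 were highest in replicate 1. Vtn, a pericyte gene, was at 0 in all E13 endocardial libraries and at most 0.0504 CPM in E13 coronary ones, and Myh11, a smooth muscle gene, was below 1 CPM in every E13 library. Other mural genes were well above that: at E13, Tagln was at most 3.46 CPM in endocardial and at least 27.4 CPM in coronary libraries. Rgs5 was at most 1.15 and at least 7.68 CPM. In E17 coronary replicates 1 and 2, Rgs5 read 164 and 111 CPM, Myh11 4.05 and 2.40 CPM and Vtn 1.78 and 0.719 CPM. The part of mural cells in the Heyl difference was not tested.

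The sum of 10 cardiomyocyte genes, beside which Hey2 is given, lay between 199.3 and 344.6 CPM for the E13 endocardium and between 123.1 and 303.2 CPM for E13 coronary cells. At E13 0 of the 10 were higher and 1 was lower in coronary libraries by edgeR's adjusted p. At E17 the sums were 259.1 and 321.1 CPM in endocardial and 240.7 and 336.2 CPM in coronary libraries. The 7 epicardial genes summed to at most 12.8 CPM on the endocardial side and at least 82.2 CPM on the coronary side at E13, and to at most 14.6 and at least 160.5 CPM at E17. At E13, 7 of 8 fibroblast genes were higher on the coronary side, and within that group Hey2 was lowest, at 61.9 CPM, in replicate 3, where those genes were highest. At E17, 3 of the 8 were higher and 2 lower. Their E17 sums in replicates 1 and 2 were 2453.3 and 2211.2 CPM in endocardial and 4792.5 and 2172.5 CPM in coronary libraries. Hey2, Heyl, Hes1 and Rbpj had the same order in the E17 coronary pair, and Hey1 and Nrarp the opposite. The E13 log2 fold change of Hey2 was 4.44 without coronary replicates 1 and 3, and that of Heyl 2.35. The part of fibroblasts and epicardial cells in these differences was not tested.

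**Figure D4:**
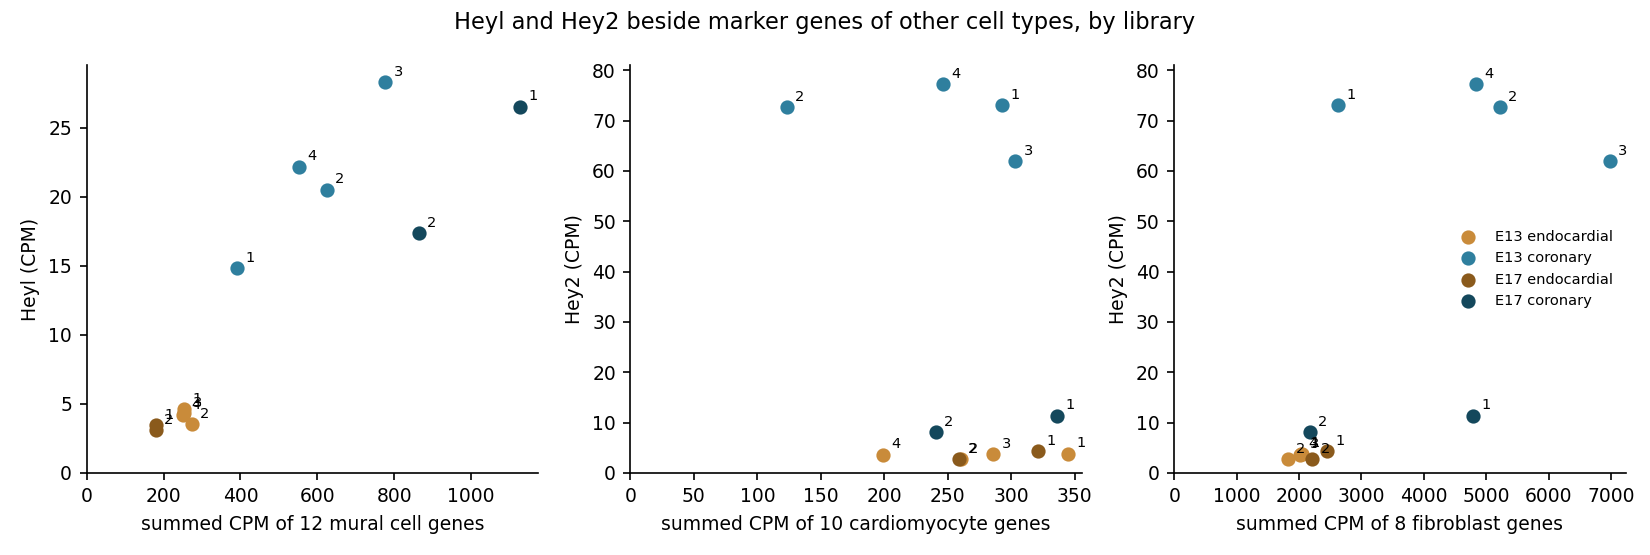
Level of Heyl or Hey2 in CPM (vertical axes) against the summed CPM of mural, cardiomyocyte or fibroblast marker genes (horizontal axes), 1 point a library, coloured by group and numbered by replicate. Heyl and the mural sum are both higher in coronary libraries, where Abcc9 alone gives 539.3 and 515.2 CPM of the mural sum at E17. The cardiomyocyte sums of 3 E13 coronary libraries, 245.9 to 303.2 CPM, lie among those of the endocardial libraries. That of E13 coronary replicate 2, 123.1 CPM, lies below them all.

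The rest of the pathway was read by role, from lists of the receptors, ligands and nuclear partners. The counts below stand beside the share of all tested genes called. At E13 that was 60.0%, with 30.1% higher and 29.9% lower, and at E17 52.6%, with 26.5% higher and 26.1% lower. A count near these shares, as for the co-repressors, is not a result about its list. The 8 co-activators stood further from the shares by direction, with 0 higher and 5 lower at E13, and were not tested as a set. Among the 4 receptor genes at E13, Notch4 was higher (0.33 ± 0.11, edgeR adjusted p = 0.0187) and Notch1 lower in coronary libraries (-0.40 ± 0.05, edgeR adjusted p = 2.00e-05). At E17, Notch4 (1.44 ± 0.16) and Notch3 (2.34 ± 0.43) were higher and Notch1 (-0.33 ± 0.07) and Notch2 (-1 ± 0.37) lower. Notch3 is also on the mural list.

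Of the 5 ligand genes 4 were tested, and 3 were higher and 1 lower in coronary libraries at each stage, with a median of 1.02 both times. Jag2 had the largest excess (3.85 ± 0.16 at E13 and 5.30 ± 0.23 at E17), and Dll1 was lower (-1.72 ± 0.07 and -3.00 ± 0.10). The excess of Dll4, the main arterial ligand, grew between stages by 0.94 ± 0.25 (edgeR adjusted p = 0.0117), and that of Jag1 fell by 0.94 ± 0.15 (edgeR adjusted p = 0.000482).

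Of 8 RBPJ co-activator genes, 5 were lower and 0 higher at E13 on the coronary side (median -0.26), led by the Mastermind gene Maml2 (-0.92 ± 0.08) and the acetyltransferase gene Crebbp (-0.51 ± 0.05). At E17, 5 were lower and 2, Maml1 (0.34 ± 0.08) and Snw1 (0.24 ± 0.07), higher. Of 15 genes for co-repressors of RBPJ or of the HES and HEY proteins, 4 were higher and 6 lower at E13 (median -0.09) and 3 higher and 5 lower at E17 (median -0.12). Fhl1 (1.69 ± 0.21) was higher and Kdm5a (-0.50 ± 0.05) and Tle4 (-0.53 ± 0.06) were lower at E13. Tle3 (0.73 ± 0.08) and Ctbp2 (0.22 ± 0.06) were higher and Tle1 (-1.09 ± 0.10) and Tle4 (-0.78 ± 0.09) lower at E17.

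Receptor processing genes were mixed, with 3 of 13 higher and 7 lower at E13 and 4 higher and 5 lower at E17. The fringe genes Mfng (2.02 ± 0.12 and 2.51 ± 0.17 at E13 and E17) and Lfng (3.07 ± 0.23 and 3.41 ± 0.29), whose products add sugars to Notch, were higher in coronary libraries at both stages. The third fringe gene, Rfng, was lower at E13 (-0.30 ± 0.11, edgeR adjusted p = 0.0337) and stood at -0.03 ± 0.15 at E17. Aph1b, a gene of the gamma-secretase complex, was lower (-1.10 ± 0.10 and -2.63 ± 0.15), as were the protease gene Adam10 at E13 (-0.49 ± 0.04) and the presenilin gene Psen2 at E17 (-0.89 ± 0.11). Of 11 turnover genes 10 were tested, with 3 higher and 4 lower at E13 and 3 of each at E17. Numb, which encodes an inhibitor of Notch, was lower at E13 (-0.44 ± 0.07) and higher at E17 (0.49 ± 0.09), and its relative Numbl went the opposite way (0.33 ± 0.11 and -1.52 ± 0.17). Of the Deltex genes, Dtx3 was lower at both stages (-1.10 ± 0.09 and -0.59 ± 0.13) and Dtx4 higher (1.41 ± 0.22 and 2.53 ± 0.30). Dtx1, at group means of at most 2.09 CPM, was higher at E13 (3.83 ± 0.34) and not called at E17 (-0.49 ± 0.41). Dtx2 was lower at E13 (-0.29 ± 0.08) and stood at 0.02 ± 0.12 at E17.

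**Figure D5:**
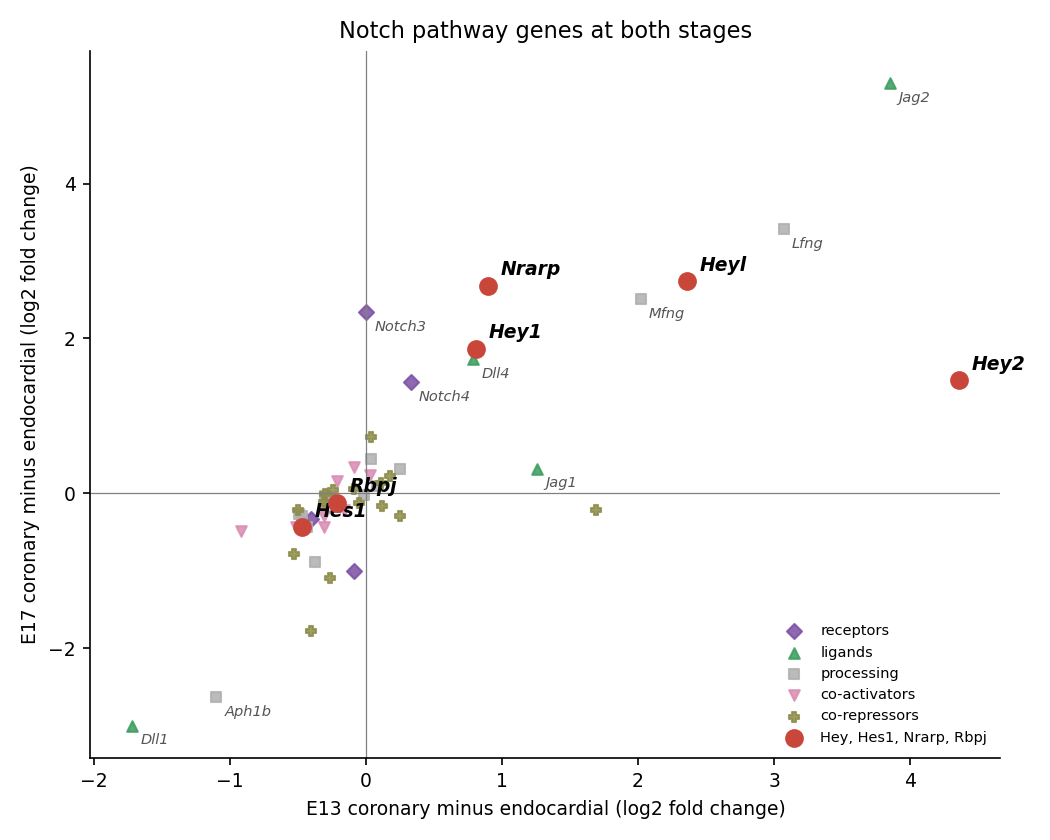
Coronary minus endocardial log2 fold change at E13 (horizontal axis) and E17 (vertical axis) for the 6 members, in red, and for receptor, ligand, processing, co-activator and co-repressor genes. Hey2 lies far to the right, at 4.36 and 1.46, while Nrarp, at 0.90 and 2.68, and Hey1, at 0.81 and 1.87, lie higher on the E17 axis than on the E13 axis.

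Of 8 other genes of the Hes and Hey class 5 were tested, and 4 were higher and 0 lower in coronary libraries at E13, with 0 called at E17. Hes2, Hes3 and Helt were too low to be tested. Hes5, Hes7 and Bhlhe41 were called higher at E13 (edgeR adjusted p = 0.00311, 0.00368 and 0.00997) at group means of at most 1.75 CPM. Hes6 lay between 14.6 and 18.6 CPM on average in all groups and did not pass at E13 or E17. Bhlhe40 was the fourth gene higher at E13 (1.51 ± 0.15, edgeR adjusted p = 3.38e-06) but not called at E17 (0.25 ± 0.20), and its mean endocardial level was 25.4 CPM at E13 and 156.1 CPM at E17.

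Of 12 endothelial genes reported to respond to Notch, 8 were higher and 2 lower in coronary libraries at E13 (median 0.63) and 10 higher and 0 lower at E17 (median 1.48). Unc5b (4.43 ± 0.09 and 4.41 ± 0.13) was among the highest at both stages. Gja5, an arterial connexin gene, stood at 5.25 ± 0.29 at E13, and Sox17, an arterial transcription factor gene, at 4.34 ± 0.27 at E17. Gja4 (-0.51 ± 0.08) and Epas1 (-0.50 ± 0.10) were lower at E13. From E13 to E17 in coronary cells, where Hey2 fell, 9 of these 12 genes rose and 0 fell by edgeR's adjusted p. Of all tested genes 24.6% rose and 25.6% fell.

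The genes whose profiles over the 12 libraries were most like each member were found by the root mean square difference of log2 CPM after centring, among 9207 other genes of at least 10 CPM. For Hey2 these were Pthlh (0.36), Tbx20 (0.44) and Thbs1 (0.44), against a median of 1.98 over all candidates. Pthlh, a secreted peptide gene, had 1.95, 40.2, 2.49 and 6.41 CPM in E13 endocardial, E13 coronary, E17 endocardial and E17 coronary libraries, the same low, high, low, low-to-middle order as Hey2. Tbx20, a cardiac transcription factor gene, had 32.2, 449.2, 21.8 and 79.0 CPM in that order.

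For Nrarp the most alike were Dock11 (0.16), Arhgap25 (0.17) and Pcdh12 (0.18), against a median of 0.90, and for Hey1 they were Lxn (0.13), Pls3 (0.15) and Apbb2 (0.16), against 0.71. Heyl was most like Myo5a (0.22), Tril (0.27) and Khdrbs3 (0.34), against 1.27. Hes1 (Btg1 at 0.11, Trim24 at 0.11 and Isca1 at 0.12) and Rbpj (Csnk1g1 at 0.07, Sco1 at 0.09 and Sox11 at 0.09) varied so little that the median over all genes, 0.42 and 0.29, was itself low. Among the members, Hey1 and Nrarp had the most similar profiles (0.31), and Hey2 and Hes1 the least (2.25). Hey1 and Hey2 were 1.71 apart.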

How the data were processed

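RNA of sorted cells was purified with a PicoPure kit, and polyadenylated RNA was made into NEBNext Ultra libraries read as single reads, per the labels' protocols. The authors deposited 1 table of expected counts by Ensembl gene identifier. The submitters' processing notes name RSEM 1.2.3, CASAVA 1.8.2, cutadapt 1.3 and build GRCm38. The role and settings of each tool were not given in the sources used here. Each of the 12 columns was matched to a sample by title.

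Expected counts were rounded. Genes were kept by filterByExpr (minimum count 10, total 15), which left 15171. Groups were compared in edgeR 4.0.16 (R 4.3.3) by quasi-likelihood, with TMM scaling and 1 fit of 4 group means over 12 libraries, 8 residual degrees of freedom, two-sided, with Benjamini-Hochberg adjustment over all genes tested and a threshold of 0.05. The SE was obtained by dividing the size of a log2 fold change by the root of its F statistic. CPM uses TMM-scaled totals. Exon lengths are all annotated exon bases. The test was checked on simulated counts.

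The members and lists were chosen with earlier results of these data known. Named pathway genes are up to 2 that rose and 2 that fell with the smallest adjusted p per list and stage, at 5 CPM or more; 1 gene that this rule names is not reported here. Dll4 and Jag1 at the change between stages, Bhlhe40 at E17, Hes5, Hes6, Hes7, Bhlhe41 and Rfng were named after their values were seen. So were Dtx1, Dtx2, Dtx4 at E13, and single mural and endothelial genes. Alternatives were DESeq2 1.42.0, DESeq2-style size factors, no filter, each library left out, only the groups compared, and the batch as a block. Adding Rbpj-ps3, leaving out 2 E13 coronary libraries and the longest transcript were chosen after seeing the data.

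Each batch number in the labels is shared by 1 endocardial and 1 coronary library. Deviations from the group means correlated, across 9481 genes, at 0.377, 0.682, 0.367 and 0.478 within E13 batches 1 to 4 and at 0.38 within the E17 batches, where 2 libraries a group give 1 value up to its sign. Between different E13 batches the values ran from -0.508 to 0.439, the highest, for endocardial batch 3 with coronary batch 4, above the same-batch value of batch 3. Replicates differed by more than counting noise (chi-square per gene from 4.81 to 40.0), so all were counted.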

Additional observations from a re-analysis of the deposited data

Results flagged for a closer look

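Hey1 in the E13 coronary libraries had 1 library far from the others: replicate 1 read 83.2 CPM, and its gap to the next library was 0.877 of the group's range and above Dixon's critical value for 4 libraries. 12 groups of 4 were examined in this way, and chance flags about 1 in 20. Of 7 coronary capillary marker genes, 5 were also highest in replicate 1, and so was the summed level of the 6 endothelial genes.

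The coronary minus endocardial difference changed between the stages, by the edgeR test of the difference itself, for Hey2 (-2.91), Nrarp (1.77) and Hey1 (1.06). Hey2 had the same direction in all 4 E13 and both E17 batches, with log2 ratios from 4.08 to 4.76 and of 1.40 and 1.61. For Nrarp the ratios ran from 0.57 to 1.16 at E13 and were 2.57 and 2.78 at E17, and for Hey1 from 0.48 to 1.16 and 1.61 and 2.15. The added alleles, tamoxifen and gate of the E17 groups cannot be told apart from stage.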

How the results depend on the processing

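Of 396 values of single members under alternatives, 366 kept their direction and their side of the threshold, 13 lost and 3 gained a call, and 14 changed sign, all 14 with 1 library left out and none of them called in the fit of all libraries. With 1 library left out, the stage change ran from -0.09 to 0.18 for Hes1 and from -0.15 to 0.29 for Rbpj. Rbpj ran from -0.34 to 0.08 in the E17 comparison and from -0.40 to 0.04 between stages in coronary cells, and Heyl from -0.31 to 0.31 there. In the endocardium, Hey1 ran from -0.29 to 0.01 and Hey2 from -0.38 to 0.31. The number of genes called between stages in the endocardium, 4830, ran from 2928 to 4337, and that of members from 1 to 2, and the cause was not tested. The batch as a replicate block gave 9112, 7957 and 4963 genes called at E13, at E17 and for the stage change, against 9106, 7977 and 4962, and changed no call of a member. Each batch holds 1 stage, so no block could be fitted between stages. E17 groups hold 2 libraries, and leaving 1 out assumes that the other varies like the other groups.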
